A study of Homo sapiens with 12 samples.

Results

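The genes described here are 56 genes of mitosis, namely the transcription factors FOXM1 and MYBL2 with the proliferation markers MKI67 and TOP2A, and the genes for mitotic kinases and cyclins, the spindle checkpoint, the kinetochore, mitotic kinesins, the spindle and cytokinesis. They were taken by gene symbol from the deposited expression tables, and 56 of 56 were found among 23273 genes listed. The libraries came from COLO858 and MMACSF, established human melanoma cell lines with mutant BRAF, each grown as 1 line in culture. Cells of both lines were treated with the vehicle DMSO or with 0.2 μM vemurafenib, a RAF inhibitor, for 24 or 48 h, in 2 replicates each, which gave 12 libraries in 6 groups. How long the DMSO cells were cultured is not labelled, and the 24 h and 48 h comparisons of a line share its 2 DMSO libraries. The labels say that cells were plated in 2 replicates, but not that these came from separate cultures or days, so the p-values measure the spread between these libraries only.

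Cells that leave the cell cycle stop transcribing the genes of mitosis, and cells that cycle transcribe them mainly in G2 and M phase. MYBL2 (B-Myb) together with the MuvB core, and later FOXM1, activates these genes at promoters that carry a cell cycle homology region (CHR), and in resting cells the DREAM complex of MuvB with RB-like proteins represses the same promoters. In mutant BRAF melanoma, RAF inhibitors lower ERK signalling and arrest most cells in G1, so the RNA of this group is widely read as a marker of how many cells in a culture divide.

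Of the 56 genes 55 reached a group mean of 1 FPKM (fragments mapped, per kilobase of a transcript and relative to all mapped fragments of the library) in both lines and were tested. KIFC1, a minus-end directed kinesin that focuses spindle poles, was listed at 0 in 11 libraries and at 0.0321 FPKM in 1 DMSO library of COLO858, and no fold was computed for it. A listed 0 can be a failed estimate in tables of this kind, so it is not read as a level of 0. FPKM are scaled to transcript length, so levels can be compared between genes, and all log2 changes below are on log2(FPKM + 1), which understates changes that end below about 1 FPKM. The sum of FPKM over all genes, which is not a depth, was 670310 to 1013038 per library. Small RNA genes held 20.8% to 50.6% of that sum, with the higher share in replicate 2 of each group. The melanocyte markers PMEL, DCT, MITF, SOX10 and S100B were at 64.6 FPKM or more under DMSO in both lines, whereas MLANA and TYR averaged 0.432 and 0.537 FPKM in COLO858 and 1044 and 189.5 FPKM in MMACSF, and TYRP1 2.76 and 1.96 FPKM in the 2 lines. The sum of these 8 markers went from 717 and 702 FPKM under DMSO to 4140 and 4150 at 48 h in COLO858, where 4 of 7 tested were higher at each time, and from 11200 and 11400 to 16800 and 17600 FPKM in MMACSF, where 1 of 8 was higher at 24 h and 3 at 48 h. PTPRC and CD3E, the defining immune markers, stayed under 1 FPKM in each group, as did the 4 endothelial markers. The sum of 6 immune markers was at most 14.5 FPKM in COLO858, where it was lowest at 48 h (3.86 and 5.33 FPKM), and between 50.0 and 86.7 FPKM in MMACSF, where 2 of the 6 reached 1 FPKM (1 of 6 in COLO858). Of 5 fibroblast markers 4 reached 1 FPKM in COLO858 and 3 in MMACSF, and their summed level moved with treatment, from 9.14 and 11.9 under DMSO to 18.7 and 28.4 FPKM at 48 h in COLO858 and from 57.8 and 79.1 to 20.1 and 28.9 FPKM in MMACSF, mostly by LUM. The sum of 5 epithelial markers went from 6.97 and 5.41 to 2.54 and 2.44 FPKM in COLO858 and from 24.0 and 29.5 to 36.5 and 41.5 FPKM in MMACSF. Their part in the results was not tested.

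Many promoters of these genes carry short shared sequences, and 7 are shown as examples. The windows are from RefSeq (GRCh38.p14), 5′ to 3′ on the strand of the gene, and each holds 300 bases around the first listed transcription start. Capitals mark the CHR core TTTGAA, its variant TTTAAA and the CCAAT box, each on either strand, so TTCAAA and ATTGG are the same motifs on the other strand. CCNB2 at chr15:59104896-59105195, CDC20 at chr1:43358731-43359030, KIF20A at chr5:138178862-138179161, PLK1 at chr16:23678639-23678938, INCENP at chr11:62123761-62124060 and MYBL2 at chr20:43666864-43667163 lie on the plus strand, and TOP2A at chr17:40417847-40418146 on the minus strand.
CCNB2: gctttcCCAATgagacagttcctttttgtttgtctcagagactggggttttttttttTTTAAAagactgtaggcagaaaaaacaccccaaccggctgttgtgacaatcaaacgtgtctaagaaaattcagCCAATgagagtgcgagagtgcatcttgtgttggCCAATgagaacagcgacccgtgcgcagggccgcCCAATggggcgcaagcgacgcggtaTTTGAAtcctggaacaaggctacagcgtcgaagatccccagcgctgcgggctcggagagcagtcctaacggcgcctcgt
CDC20: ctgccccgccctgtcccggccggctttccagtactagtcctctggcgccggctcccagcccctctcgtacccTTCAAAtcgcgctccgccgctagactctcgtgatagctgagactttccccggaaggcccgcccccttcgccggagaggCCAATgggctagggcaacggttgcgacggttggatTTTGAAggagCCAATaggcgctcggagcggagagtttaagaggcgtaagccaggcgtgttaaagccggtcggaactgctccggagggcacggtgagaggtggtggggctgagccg
KIF20A: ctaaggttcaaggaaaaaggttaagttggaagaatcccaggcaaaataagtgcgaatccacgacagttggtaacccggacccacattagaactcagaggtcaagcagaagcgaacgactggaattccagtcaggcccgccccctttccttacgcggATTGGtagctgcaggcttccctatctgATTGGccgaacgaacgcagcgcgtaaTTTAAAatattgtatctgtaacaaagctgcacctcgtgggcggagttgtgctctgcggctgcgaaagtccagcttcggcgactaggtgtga
PLK1: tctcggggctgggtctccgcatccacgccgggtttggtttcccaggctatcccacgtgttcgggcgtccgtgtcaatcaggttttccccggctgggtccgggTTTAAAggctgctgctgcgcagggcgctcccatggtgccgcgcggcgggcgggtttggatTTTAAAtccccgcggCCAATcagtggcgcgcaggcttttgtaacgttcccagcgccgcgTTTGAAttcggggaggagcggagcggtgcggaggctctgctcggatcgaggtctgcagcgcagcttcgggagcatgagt
TOP2A: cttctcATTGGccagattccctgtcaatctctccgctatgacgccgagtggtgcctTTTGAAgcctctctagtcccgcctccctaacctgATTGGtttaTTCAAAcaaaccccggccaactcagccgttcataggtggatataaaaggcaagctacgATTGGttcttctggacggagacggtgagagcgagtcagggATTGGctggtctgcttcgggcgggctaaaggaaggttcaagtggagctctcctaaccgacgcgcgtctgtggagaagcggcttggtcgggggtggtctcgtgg
INCENP: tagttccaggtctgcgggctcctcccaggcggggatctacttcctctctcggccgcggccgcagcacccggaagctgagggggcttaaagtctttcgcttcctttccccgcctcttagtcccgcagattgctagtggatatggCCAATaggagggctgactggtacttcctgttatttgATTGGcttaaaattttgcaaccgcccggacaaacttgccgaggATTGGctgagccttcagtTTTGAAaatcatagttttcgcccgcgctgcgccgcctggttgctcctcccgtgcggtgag
MYBL2: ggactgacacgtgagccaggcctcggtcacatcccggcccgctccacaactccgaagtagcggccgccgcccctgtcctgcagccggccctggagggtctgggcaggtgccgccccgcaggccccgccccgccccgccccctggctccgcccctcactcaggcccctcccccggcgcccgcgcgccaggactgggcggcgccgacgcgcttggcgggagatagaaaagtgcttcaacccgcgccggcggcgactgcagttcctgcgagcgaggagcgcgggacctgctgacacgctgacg

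The CCNB2 window held 2 CHR cores and 4 CCAAT boxes, that of TOP2A held 2 and 4, and that of PLK1 held 3 and 1. KIF20A had 1 CHR core, of the form TTTAAA, with 2 CCAAT boxes, and INCENP had 1 with 3. The MYBL2 window held 0 of either, which says only that these letters are not in it. Windows were available for 48 of the 56 genes, and those of AURKA, BIRC5, BUB3, CENPM, FOXM1, TPX2, TTK and UBE2C were not used here. A CHR core in one of the 2 forms was found in 37 of the 48 (77.1%), against 24.3% of 27305 genes with a window. The form TTTGAA alone was in 32 (66.7%, against 15.4%), and a CCAAT box was in 37 (77.1%, against 35.7%). Both together were in 30 (62.5%, against 9.49%). The E2F cores TTCCCGC and TTGGCGC were in 6 and 5 of the 48 (12.5% and 10.4%, against 6.56% and 3.12%), and the forkhead sequence GTAAACA was in 1 (2.08%, against 3.41%). No 2 of these motifs were merged when their letters overlapped, TTTAAA reads the same on both strands, and a match is a description of the letters, not a bound site.

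In COLO858 the group fell at 24 h and stood higher again at 48 h, whereas in MMACSF it fell at 24 h and lay lower still at 48 h. At 24 h 50 of 55 genes were lower than under DMSO in COLO858 at an adjusted p under 0.01 (limma, two-sided), where 5.71% of all genes tested were lower, and the median log2 change of the group was -2.54 against 0.06 over all genes. In MMACSF 47 were lower, with 3.6% of all genes lower, and the median was -2.17. At 48 h 6 genes were lower in COLO858 (4.73% of all genes, median -0.68), and 53 were lower in MMACSF (5.41% of all genes, median -3.08). Between 24 and 48 h 22 genes rose in COLO858 (1.17% of all genes, median 1.88) and 2 fell in MMACSF (0.111% of all genes, median -0.84). The counts in COLO858 depended on the model. With the replicate number added to it, 36 more genes were lower at 48 h and 32 more rose from 24 to 48 h there. In MMACSF 2 more were lower at 48 h. No batch is stated for the replicate number, and the class counts below are from the model without it. Between the 2 libraries of a group the median SD over the genes was 11.9% to 19.9% of the mean, and the highest were 84.3% (CENPM, MMACSF at 24 h) and 141% (SPC24, MMACSF at 48 h).

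**Figure D1:**
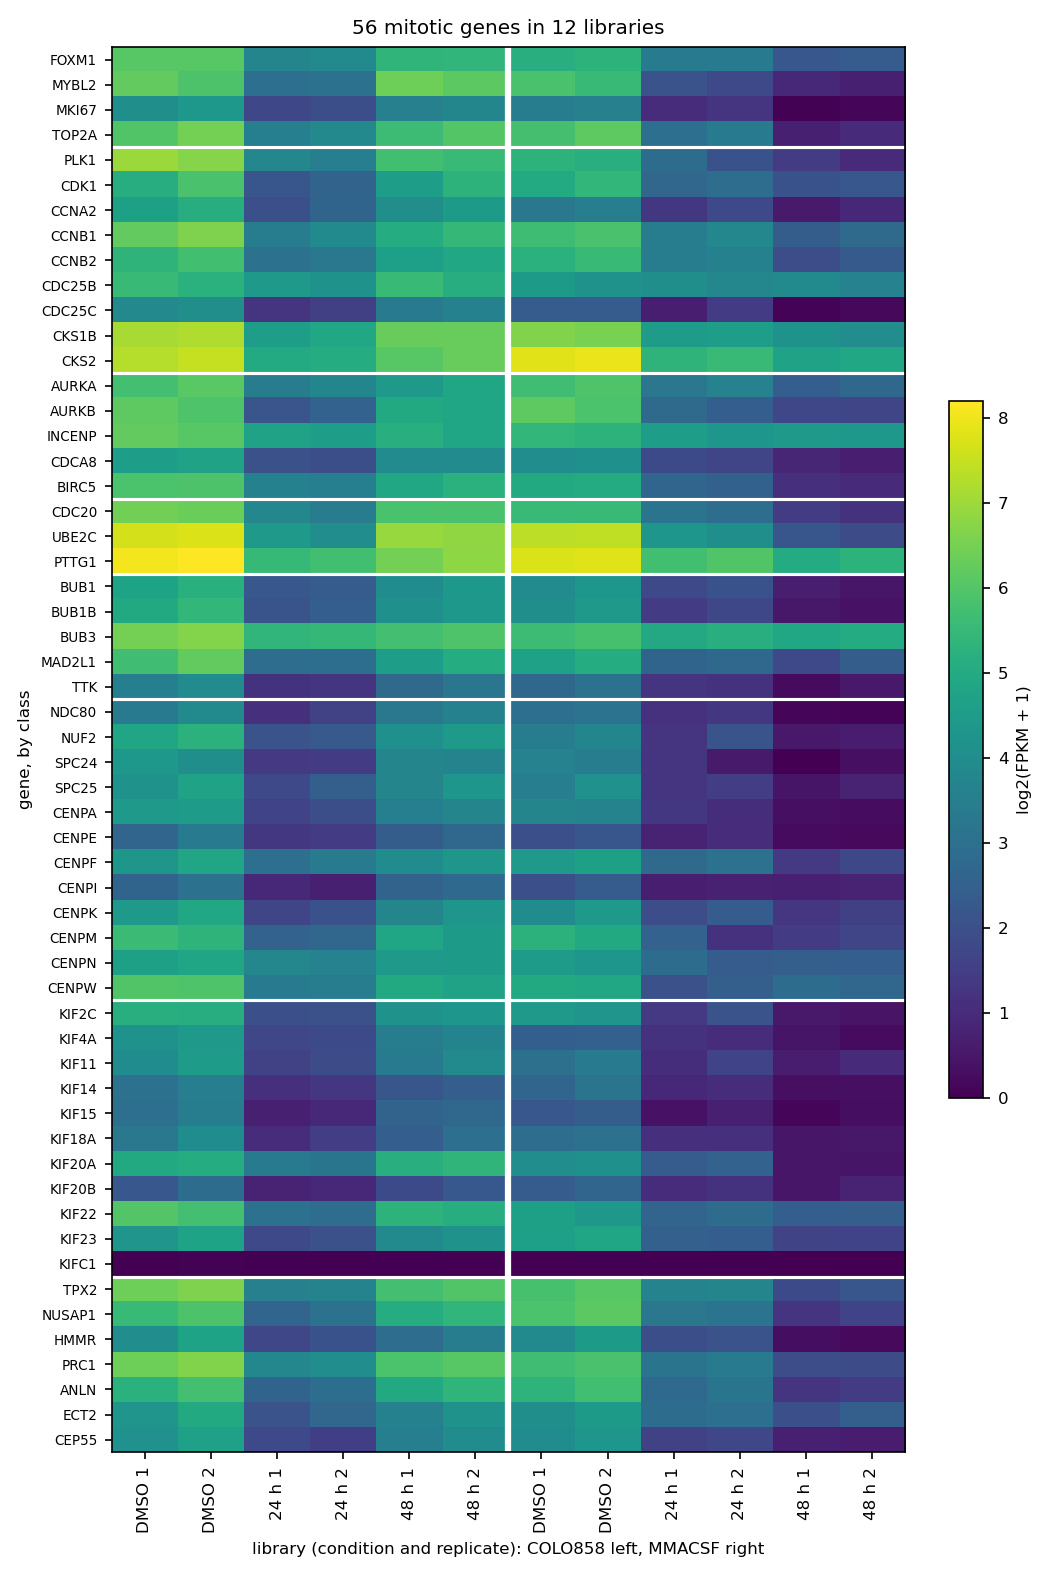
Levels of the 56 genes as log2(FPKM + 1), one row per gene sorted by class (white lines) and one column per library, with the 6 libraries of COLO858 on the left and those of MMACSF on the right. The 24 h columns are darker than DMSO in both lines, and at 48 h the columns of COLO858 are lighter again while those of MMACSF are darkest, with KIFC1 listed at 0 in all but 1 library.

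The separation of the groups followed the same order. All 55 tested genes lay lower in both 24 h libraries than in both DMSO libraries, in COLO858 (29% of all genes tested) and in MMACSF (25.8%), and at 48 h this held for 55 of 55 in MMACSF (28.8%). At 48 h in COLO858 the libraries did not overlap for 43 of 55 genes, which were lower (31.4% of all genes tested lay lower without overlap). KIF20A was the 1 gene without overlap in the other direction, and the values of ANLN, CDC25B, CDK1, CENPE, CENPF, CENPI, KIF20B, MYBL2, NDC80, SPC25 and TOP2A overlapped those under DMSO. From 24 to 48 h all 55 were higher without overlap in COLO858 (20.1% of all genes), and 48 of 55 were lower without overlap in MMACSF (17.6% of all genes tested). The exceptions in MMACSF were CENPW, which lay higher at 48 h, and BUB3, CDC25B, CENPI, CENPM, CENPN and INCENP. Relative to the DMSO mean, the median gene of COLO858 was at 13.3% after 24 h and 61.4% after 48 h, with a range of 35.4% (PTTG1) to 117% (KIF20A) at 48 h. In MMACSF it stood at 17.9% and then 5.15%, with a range of 0.609% (MKI67) to 66.1% (CDC25B) at 48 h, and 26 genes were under 5%. These are RNA levels of whole cultures, in which fewer cells in mitosis and less RNA of these genes per cell cannot be told apart.

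Counts of genes past the threshold depended on the number of libraries. Without any 1 library of the pair compared, 6 to 13 genes were lower at 24 h and 0 at 48 h in COLO858 (21 to 38 at an unadjusted limma p under 0.05), and 0 to 7 and 24 to 28 in MMACSF. The medians stayed within -2.72 to -2.36 and -0.83 to -0.56 in COLO858, and within -2.32 to -2.01 and -3.19 to -2.91 in MMACSF. The 22 rises in COLO858 and the 2 falls in MMACSF between 24 and 48 h each went to 0 without any 1 of the libraries compared, with medians of 1.74 to 1.98 and -0.97 to -0.82, and 52 to 54 and 34 to 42 genes kept an unadjusted limma p under 0.05 in that direction.

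The transcription factors FOXM1 and MYBL2 and the proliferation markers MKI67 and TOP2A fell in both lines at 24 h, 4 of 4. At 48 h 4 of 4 remained lower in MMACSF and 0 of 4 were called in COLO858, with 2 at an unadjusted limma p under 0.05. FOXM1 (chr12:2966846-2986340, minus strand, GRCh37), the forkhead factor that drives G2 and M phase genes, was at 66.7 and 65.7 FPKM under DMSO, 12.4 and 13.9 at 24 h, and 40.5 and 41.5 at 48 h in COLO858. In MMACSF it went from 35.5 and 38.5 FPKM under DMSO to 9.20 and 9.76 at 24 h and 3.68 and 4.18 at 48 h. The fall at 24 h was -2.25 ± 0.13, adjusted p = 0.00085 in COLO858 and -1.86 ± 0.13, adjusted p = 0.00196 in MMACSF (limma, log2 scale ± SE), and FOXM1 rose again by 48 h in COLO858 (1.57 ± 0.13, adjusted p = 0.0057).

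MYBL2 (chr20:42295659-42345135, plus strand), the B-Myb factor that binds MuvB, had the deepest fall of the 4 at 24 h in each line on the log2(FPKM + 1) scale (-3.04 and -3.76). In COLO858 it was at 74.0 and 58.8 FPKM under DMSO, 7.02 and 7.29 at 24 h, and 83.5 and 68.8 at 48 h, so that the 48 h libraries overlapped those under DMSO at 115% of the mean. In MMACSF it was at 56.6 and 46.2 FPKM under DMSO, 3.25 and 2.47 at 24 h, and 0.906 and 0.666 at 48 h, which is 1.53% of the DMSO mean. Its rise from 24 to 48 h in COLO858, 3.24 ± 0.18, adjusted p = 0.00281 (limma), exceeded that of the other 54 genes.

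MKI67, the source of the Ki-67 antigen that coats mitotic chromosomes, was at 15.9 and 19.8 FPKM under DMSO, 2.47 and 2.91 at 24 h, and 10.9 and 12.5 at 48 h in COLO858. In MMACSF it went from 10.0 and 11.0025 FPKM under DMSO to 1.04 and 1.37 at 24 h and 0.0430 and 0.0852 at 48 h, the lowest share of DMSO in the group at 0.609%. TOP2A (chr17:38544777-38574148, minus strand), the topoisomerase that untangles sister chromatids, was at 62.6 and 89.7 FPKM under DMSO, 10.6 and 13.4 at 24 h, and 47.9 and 64.0 at 48 h in COLO858 and at 54.0 and 70.4 FPKM under DMSO, 7.01 and 9.11 at 24 h, and 0.654 and 1.01 at 48 h in MMACSF. At 48 h its libraries in COLO858 overlapped those under DMSO, and its fall in MMACSF was -5.10 ± 0.21, adjusted p = 0.000376 (limma).

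**Figure D2:**
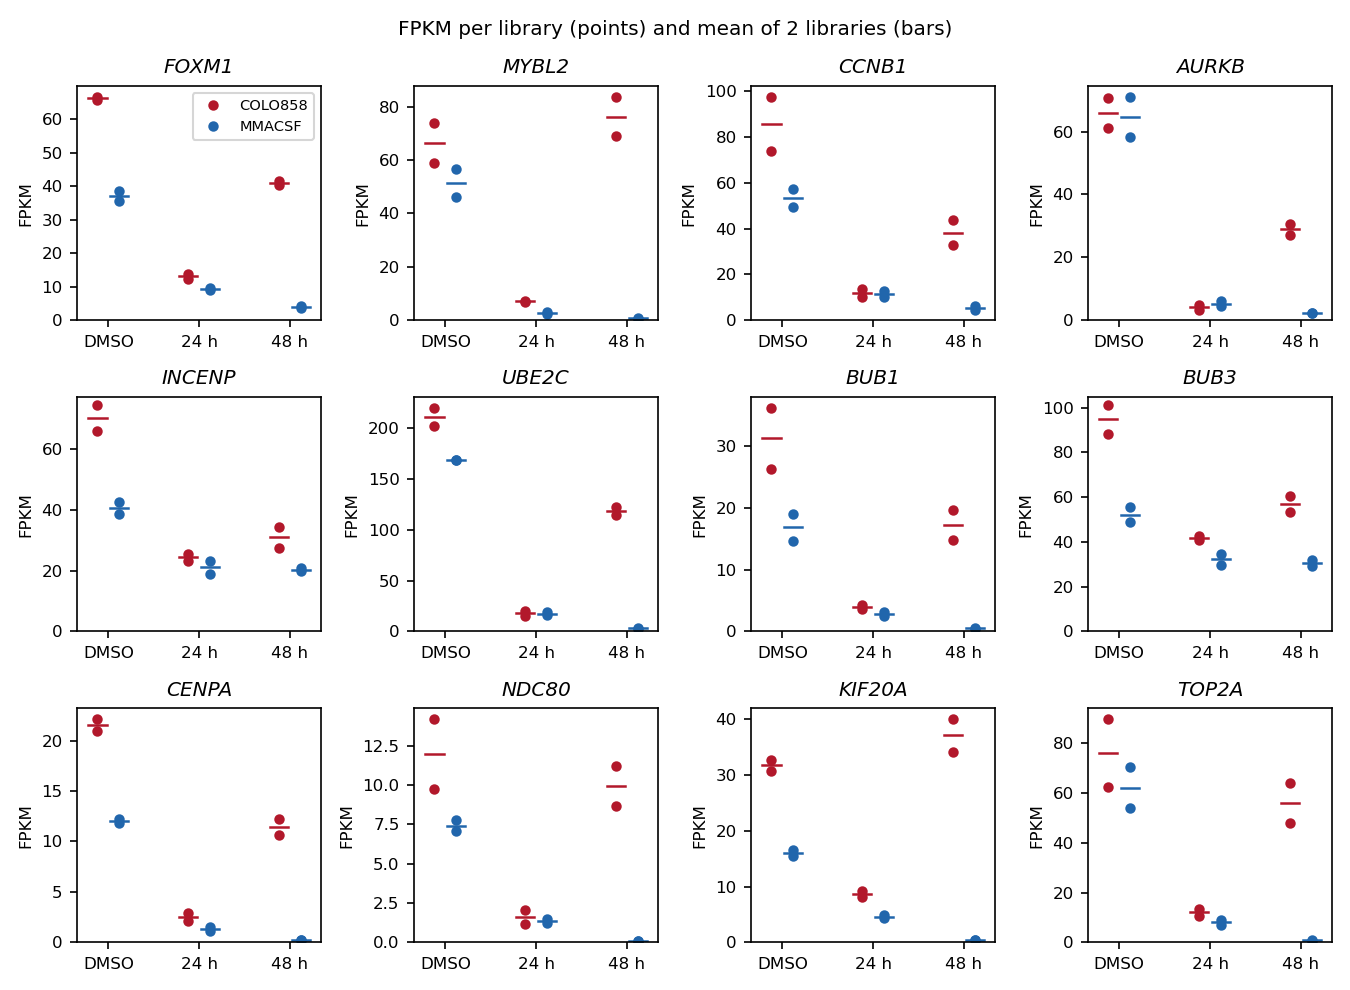
FPKM of 12 of the genes in each library (points) with the mean of the 2 libraries of a group (bars), for COLO858 in red and MMACSF in blue under DMSO and after 24 and 48 h of vemurafenib, on axes that start at 0. At 48 h in COLO858 KIF20A lies above its DMSO values, and MYBL2, NDC80 and TOP2A overlap theirs. In MMACSF the genes shown other than INCENP and BUB3 end between 1.02% (NDC80) and 10.6% (FOXM1) of the DMSO mean.

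CDK1, its cyclins and their regulators drive entry into mitosis, and 8 of 9 fell in COLO858 and 7 of 9 in MMACSF at 24 h. At 48 h 8 of 9 were lower in MMACSF. In COLO858 PLK1 and CKS2 were lower at that time, and 5 of 9 had an unadjusted limma p under 0.05. CDK1, the kinase itself, was at 33.6 and 56.1 FPKM under DMSO, 3.58 and 5.07 at 24 h, and 23.5 and 38.8 at 48 h in COLO858. In MMACSF its libraries read 31.4 and 42.6, 5.56 and 6.603, and 3.21 and 3.71 FPKM in the same order. The spread between the 48 h libraries of COLO858 was the widest of the 55 genes there, with an SD of 34.9% of the mean, and they overlapped DMSO.

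CCNB1, the main mitotic cyclin, went from 73.6 and 97.4 FPKM under DMSO to 10.2 and 13.8 at 24 h and 32.6 and 43.7 at 48 h in COLO858. The MMACSF libraries held 49.3 and 57.0, 10.1 and 13.0, and 4.34 and 6.14 FPKM. CCNB1 stood at 44.6% of DMSO at 48 h in COLO858, below the group median, and its change from DMSO missed the threshold (-1.14 ± 0.24, adjusted p = 0.0261, limma). CCNB2, a second B-type cyclin, was at 39.8 and 52.2 FPKM under DMSO, 7.49 and 8.74 at 24 h, and 23.7 and 29.4 at 48 h in COLO858 and at 37.1 and 45.6 FPKM under DMSO, 9.97 and 11.3 at 24 h, and 2.80 and 3.99 at 48 h in MMACSF. CCNA2, the cyclin of S and G2 phase, was lower than both B cyclins in each line. Its libraries read 24.5 and 33.5, 2.97 and 5.32, and 15.8 and 21.4 FPKM in COLO858 and 8.80 and 10.4, 1.54 and 2.48, and 0.514 and 0.874 FPKM in MMACSF, again for DMSO, 24 h and 48 h in that order. None of these 3 cyclins overlapped its DMSO values under the drug in either line.

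PLK1, the polo-like kinase that activates CDC25C and recruits spindle proteins, stayed lower at 48 h in COLO858. It was at 126 and 104 FPKM under DMSO, 13.1 and 10.3 at 24 h, and 51.3 and 45.5 at 48 h there, with a change at 48 h of -1.23 ± 0.18, adjusted p = 0.00906 (limma). In MMACSF PLK1 went from 38.6 and 34.6 FPKM under DMSO to 6.54 and 3.16 at 24 h and 1.74 and 0.972 at 48 h. CKS2 and CKS1B are small subunits that bind CDK1. CKS2 was at 156 and 178 FPKM under DMSO, 31.2 and 32.8 at 24 h, and 66.7 and 78.4 at 48 h in COLO858 and at 229.6 and 250.01 FPKM under DMSO, 39.6 and 46.5 at 24 h, and 25.4 and 28.5 at 48 h in MMACSF. CKS1B was at 138 and 149.9 FPKM under DMSO, 23.1 and 29.4 at 24 h, and 77.6 and 77.8 at 48 h in COLO858 and at 98.5 and 92.8 FPKM under DMSO, 21.7 and 23.0 at 24 h, and 17.1 and 15.2 at 48 h in MMACSF. At 48 h CKS2 was past the threshold in COLO858 (-1.19 ± 0.15, adjusted p = 0.00564, limma) while CKS1B was not (-0.88 ± 0.16, adjusted p = 0.015).

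The CDC25 phosphatases remove the inhibitory phosphates of CDK1. CDC25C, the mitotic member, fell at 24 h in COLO858 (-2.55 on the log2 scale) and rose by 48 h (2.08), and in MMACSF it stood at 27.9% of DMSO at 24 h and 2.30% at 48 h, when it was called lower (-2.26 ± 0.28, adjusted p = 0.00566, limma). CDC25B, which starts CDK1 activation at the centrosome, was the gene of the group that moved least in MMACSF. Its libraries there held 21.4 and 17.2, 16.2 and 12.9, and 14.2 and 11.4 FPKM, and neither time passed the threshold (-0.39 with adjusted p = 0.212 and -0.56 with adjusted p = 0.0902, limma). In COLO858 it was at 46.3 and 36.5 FPKM under DMSO, 20.9 and 17.1 at 24 h, and 46.0 and 33.7 at 48 h. The 24 h value missed the threshold (adjusted p = 0.0232, limma), and the sign of its change at 48 h (-0.06) flipped without DMSO replicate 1 (0.11) or without 48 h replicate 2 (0.16).

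The Aurora kinases and the chromosomal passenger complex, which correct attachments of chromosomes to the spindle, moved by different amounts within 1 complex. Of the 5 genes 5 fell in COLO858 and 4 in MMACSF at 24 h. At 48 h 5 were lower in MMACSF and 1, INCENP, in COLO858, where 5 had an unadjusted limma p under 0.05. AURKA and AURKB stood at 39.8% and 43.9% of DMSO there, beside 44.1% for INCENP. AURKB (chr17:8108051-8113918, minus strand), the catalytic subunit of the complex, fell most of all 55 genes at 24 h in COLO858 (-3.70 ± 0.20, adjusted p = 0.000787, limma). Its libraries were at 70.7 and 61.1 FPKM under DMSO, 3.43 and 4.97 at 24 h, and 30.6 and 27.3 at 48 h. In MMACSF AURKB was at 71.0 and 58.3 FPKM under DMSO, 6.18 and 4.45 at 24 h, and 2.39 and 2.31 at 48 h. INCENP (chr11:61891470-61920641, plus strand), the scaffold that binds and activates AURKB, was at 74.3 and 65.9 FPKM under DMSO, 25.6 and 23.1 at 24 h, and 34.3 and 27.6 at 48 h in COLO858. In MMACSF it was at 42.6 and 38.7 FPKM under DMSO, 23.0 and 19.0 at 24 h, and 20.8 and 19.9 at 48 h, with a change of -0.96 ± 0.14, adjusted p = 0.00876 at 48 h (limma).

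INCENP thus fell in both lines at 48 h (by a log2 change of -1.16 ± 0.16 in COLO858), and its 24 and 48 h libraries overlapped in MMACSF. The survivin gene BIRC5, which brings the complex to the centromere, was at 57.7 and 58.9 FPKM under DMSO, 11.1 and 10.8 at 24 h, and 29.6 and 36.8 at 48 h in COLO858. In MMACSF BIRC5 went from 30.4 and 32.0 FPKM under DMSO to 5.45 and 4.83 at 24 h and 1.15 and 0.971 at 48 h. AURKA, the spindle pole kinase outside the complex, was at 53.2 and 67.4 FPKM under DMSO, 10.2 and 12.8 at 24 h, and 20.8 and 27.2 at 48 h in COLO858 and at 50.5 and 60.4 FPKM under DMSO, 8.64 and 11.4 at 24 h, and 4.47 and 5.87 at 48 h in MMACSF. With 39.8% of DMSO at 48 h AURKA was second lowest after PTTG1 in COLO858, where its change missed the threshold (-1.30 ± 0.21, adjusted p = 0.0124, limma).

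Within each library the ratio of AURKB to INCENP was 0.952 and 0.927 under DMSO in COLO858, 0.134 and 0.215 at 24 h, and 0.893 and 0.989 at 48 h. In MMACSF it was 1.67 and 1.51, 0.268 and 0.234, and 0.115 and 0.116. The kinase and its scaffold were therefore near parity in COLO858 under DMSO and again at 48 h, and in MMACSF at 48 h the kinase RNA was the smaller by a wide margin. The borealin gene CDCA8 showed the same order against INCENP, at 0.308 and 0.387, 0.12 and 0.128, and 0.42 and 0.527 in COLO858. In MMACSF CDCA8 to INCENP was 0.357 and 0.418, 0.112 and 0.121, and 0.0399 and 0.0314.

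**Figure D3:**
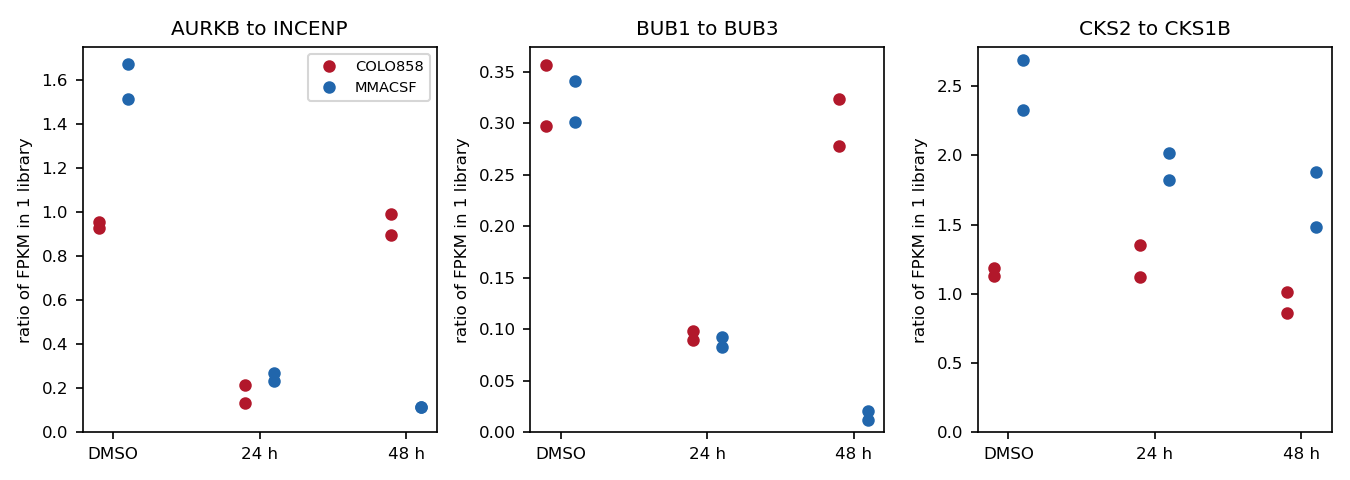
Ratio of FPKM of 2 genes in each library, for AURKB to INCENP, BUB1 to BUB3 and CKS2 to CKS1B, with COLO858 in red and MMACSF in blue under DMSO and after 24 and 48 h. AURKB to INCENP and BUB1 to BUB3 drop at 24 h in both lines, return near their DMSO values at 48 h in COLO858 and drop further in MMACSF, whereas CKS2 to CKS1B stays between 0.859 and 1.35 in COLO858 and between 1.48 and 2.69 in MMACSF.

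The genes of anaphase onset fell together at 24 h, 3 of 3 in each line, and 3 of 3 were lower in MMACSF at 48 h. CDC20, the activator of the anaphase-promoting complex (APC/C), was at 87.3 and 81.2 FPKM under DMSO, 12.9 and 10.3 at 24 h, and 57.0 and 56.7 at 48 h in COLO858. In MMACSF CDC20 went from 45.6 and 46.3 FPKM under DMSO to 7.99 and 6.72 at 24 h and 1.76 and 1.30 at 48 h. The rise from 24 to 48 h in COLO858 was 2.21 ± 0.15, adjusted p = 0.00446 (limma).

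UBE2C (chr20:44441215-44445596, plus strand), the ubiquitin-conjugating enzyme of the APC/C, was among the most abundant of the genes in both lines. It was at 202 and 220.0 FPKM under DMSO, 20.3 and 15.2 at 24 h, and 123 and 114 at 48 h in COLO858 and at 168 and 169 FPKM under DMSO, 18.8 and 16.0 at 24 h, and 3.59 and 2.64 at 48 h in MMACSF. Its fall at 48 h in MMACSF was the deepest of the group on log2(FPKM + 1) (-5.37 ± 0.16, adjusted p = 0.000345, limma), while by share of DMSO (1.85%) it stood above MKI67, NDC80, HMMR, SPC24, TOP2A and MYBL2. UBE2C and KIF20A were the 2 genes that fell between 24 and 48 h there (-2.17 ± 0.16, adjusted p = 0.00988, and -2.02 ± 0.14, adjusted p = 0.00808). PTTG1, the securin that holds separase inactive until anaphase, was at 266 and 294 FPKM under DMSO, 43.97 and 52.1 at 24 h, and 88.4 and 110.4 at 48 h in COLO858. In MMACSF PTTG1 was at 212 and 224 FPKM under DMSO, 51.3 and 62.7 at 24 h, and 31.8 and 38.7 at 48 h. PTTG1 was the gene with the lowest share of DMSO at 48 h in COLO858 (35.4%, log2 change -1.49 ± 0.17, adjusted p = 0.00458, limma).

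The spindle checkpoint holds CDC20 inactive until each kinetochore is attached, and 5 of 5 genes fell in COLO858 and 4 of 5 in MMACSF at 24 h. At 48 h 4 of 5 were lower in MMACSF and 0 of 5 in COLO858, where 5 had an unadjusted limma p under 0.05. BUB1, the checkpoint kinase, was at 26.3 and 36.1 FPKM under DMSO, 3.66 and 4.22 at 24 h, and 14.8 and 19.6 at 48 h in COLO858 and at 14.7 and 18.9 FPKM under DMSO, 2.47 and 3.205 at 24 h, and 0.613 and 0.398 at 48 h in MMACSF. BUB3 (chr10:124913918-124929983, plus strand), the adaptor that binds BUB1 and BUB1B, was at 88.4 and 101 FPKM under DMSO, 40.9 and 42.8 at 24 h, and 53.3 and 60.5 at 48 h in COLO858. In MMACSF BUB3 was at 48.7 and 55.6 FPKM under DMSO, 29.8 and 34.8 at 24 h, and 29.3 and 32.0 at 48 h, and neither time passed the threshold (-0.68 with adjusted p = 0.0268 and -0.75 with adjusted p = 0.0171, limma).

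The ratio of BUB1 to its adaptor BUB3 was 0.298 and 0.357 under DMSO, 0.0896 and 0.0984 at 24 h, and 0.278 and 0.324 at 48 h in COLO858. In MMACSF it was 0.301 and 0.341, 0.0829 and 0.0922, and 0.0209 and 0.0124. The lines thus had near equal ratios under DMSO and at 24 h and parted at 48 h. MAD2L1, which binds CDC20 directly, was at 50.3 and 74.4 FPKM under DMSO, 6.64 and 6.77 at 24 h, and 23.0 and 33.0 at 48 h in COLO858 and at 25.04 and 32.6 FPKM under DMSO, 5.32 and 5.78 at 24 h, and 2.50 and 4.36 at 48 h in MMACSF. MAD2L1 kept 11.9% of DMSO in MMACSF at 48 h, where CDC20 kept 3.32% and BUB1 and BUB1B 3.01% and 2.14%.

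Kinetochore and centromere genes fell at 24 h in 10 of 12 cases in COLO858 and 9 of 12 in MMACSF. At 48 h 12 of 12 were lower in MMACSF and 1 of 12, CENPW, in COLO858, where 5 had an unadjusted limma p under 0.05. The NDC80 complex, which grips the microtubule end, has 4 subunits that moved in parallel. NDC80 was at 9.73 and 14.2 FPKM under DMSO, 1.16 and 2.06 at 24 h, and 8.66 and 11.2 at 48 h in COLO858 and at 7.06 and 7.76 FPKM under DMSO, 1.24 and 1.52 at 24 h, and 0.0911 and 0.0606 at 48 h in MMACSF. Its partners NUF2, SPC24 and SPC25 stood between 8.92% (SPC24) and 16.4% (SPC25) of DMSO at 24 h in COLO858, beside 13.5% for NDC80. At 48 h the 4 subunits ranged from 56.1% to 83.0% in COLO858, against 1.02% to 4.78% in MMACSF. SPC24 was listed at 0 in 1 of the 48 h libraries of MMACSF and at 0.264 FPKM in the other.

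CENPA, the histone H3 variant that marks the centromere, was at 20.9 and 22.1 FPKM under DMSO, 2.15 and 2.89 at 24 h, and 10.7 and 12.2 at 48 h in COLO858. In MMACSF CENPA went from 12.2 and 11.8 FPKM under DMSO to 1.52 and 1.12 at 24 h and 0.263 and 0.208 at 48 h. CENPE, the kinetochore kinesin, was at 5.39 and 9.34 FPKM under DMSO, 1.49 and 1.69 at 24 h, and 4.34 and 5.72 at 48 h in COLO858 and at 3.01 and 3.60 FPKM under DMSO, 0.722 and 1.07 at 24 h, and 0.183 and 0.156 at 48 h in MMACSF. CENPF, a large corona protein, was at 19.1 and 27.8 FPKM under DMSO, 6.96 and 9.23 at 24 h, and 14.8 and 19.2 at 48 h in COLO858, 34.5% of DMSO at 24 h, and at 20.6 and 24.4 FPKM under DMSO, 6.12 and 7.29 at 24 h, and 1.61 and 2.40 at 48 h in MMACSF. The inner centromere genes CENPN and CENPW kept more than the other 10 of this class in MMACSF at 48 h (22.2% and 20.3%), with CENPI at 18.4%, and CENPN had the smallest change of the group at 24 h in COLO858 (-1.01 ± 0.14 on the log2 scale). For CENPN the 6 libraries of COLO858 held 24.3 and 27.0, 12.9 and 11.6, and 20.6 and 21.4 FPKM for DMSO, 24 h and 48 h. Those of CENPW in MMACSF held 30.5 and 28.4, 3.11 and 4.63, and 6.46 and 5.498 FPKM, higher at 48 h than at 24 h without overlap (0.53 ± 0.19, adjusted p = 0.666, limma).

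**Figure D4:**
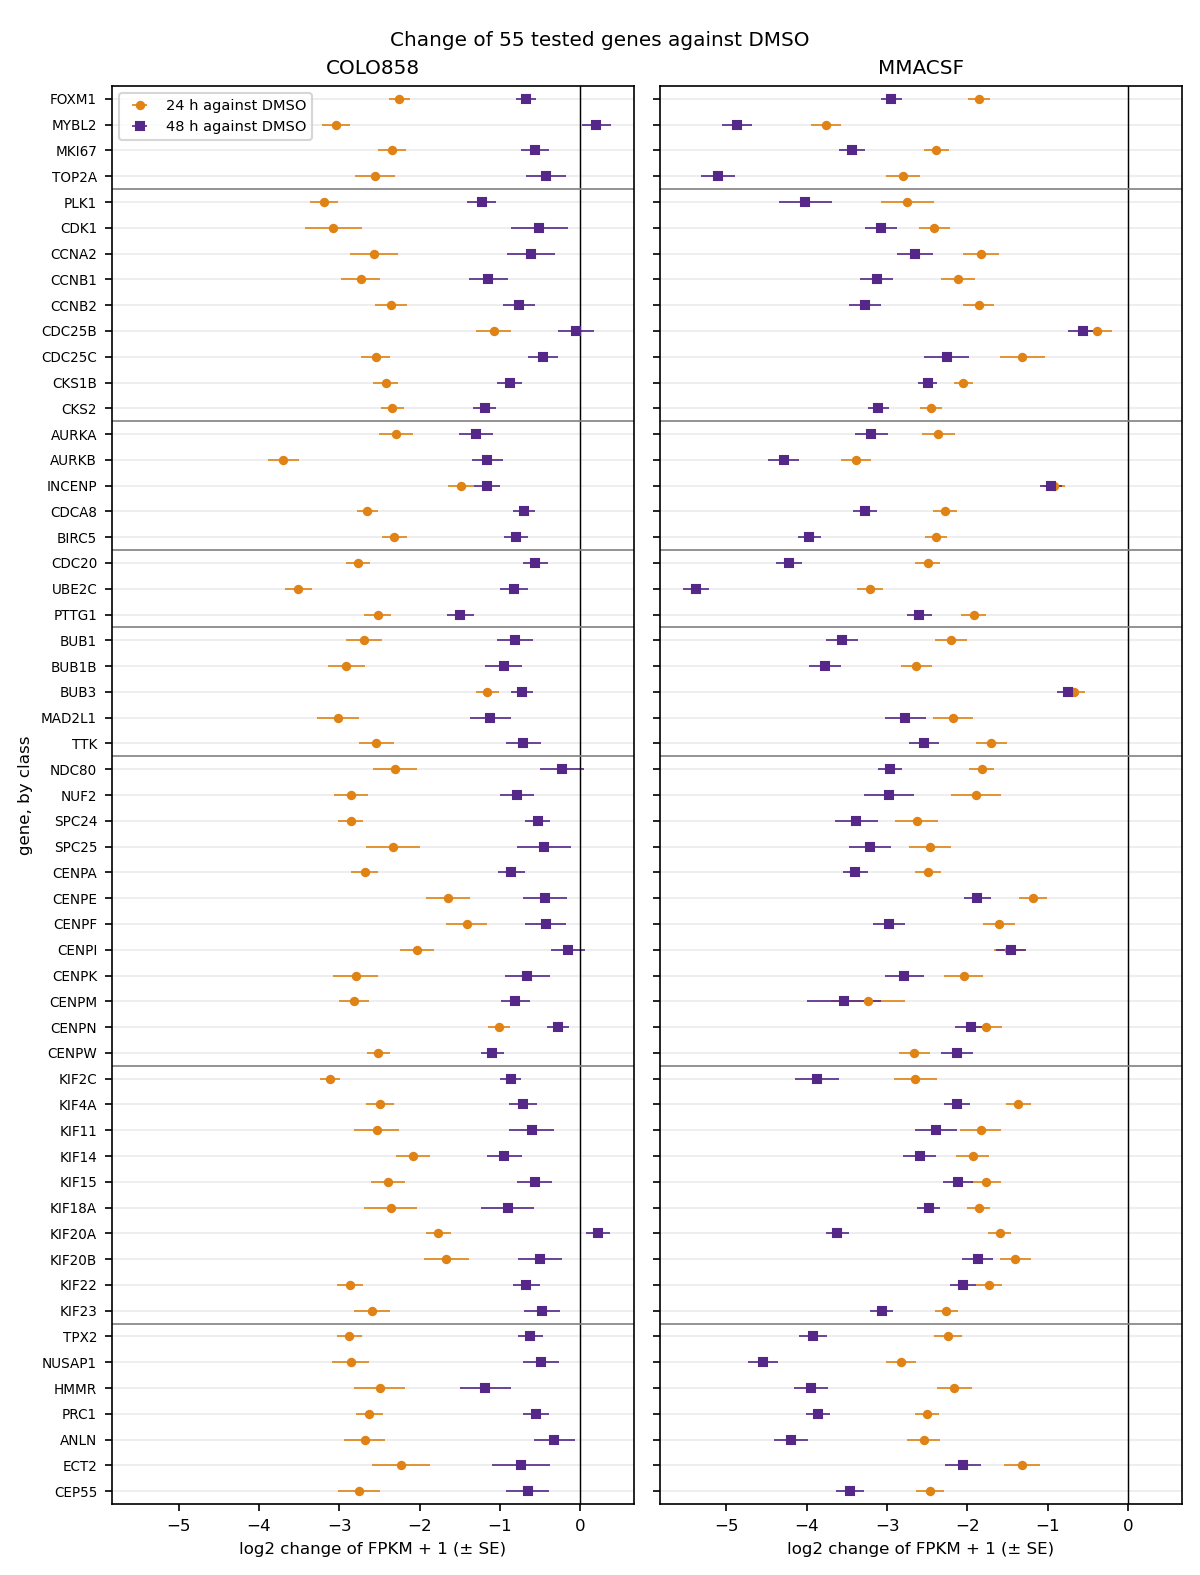
Log2 change of FPKM + 1 against DMSO (± SE of the limma fit) for the 55 tested genes, sorted by class with grey lines between classes, in COLO858 on the left and MMACSF on the right, at 24 h (orange circles) and 48 h (purple squares). In COLO858 the 48 h values lie nearer 0 than the 24 h values for each gene, and in MMACSF they lie further from 0 except for CENPI and CENPW.

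The mitotic kinesins move chromosomes and slide spindle microtubules, and 9 of the 10 tested fell in COLO858 and 10 of 10 in MMACSF at 24 h. At 48 h 10 of 10 were lower in MMACSF and 1 of 10, the microtubule depolymerase KIF2C, in COLO858 (-0.87 ± 0.13, adjusted p = 0.00942, limma). In COLO858 6 of the 10 had an unadjusted limma p under 0.05 at that time. KIF20A (MKLP2), which carries the passenger complex to the midzone, was the exception to the order in COLO858, where it was at 30.7 and 32.7 FPKM under DMSO, 9.19 and 8.05 at 24 h, and 34.2 and 40.0 at 48 h. Both 48 h libraries lay above both DMSO libraries, by a log2 change that missed the threshold (0.22 ± 0.15, adjusted p = 0.342, limma). In MMACSF KIF20A was at 15.4 and 16.5 FPKM under DMSO, 4.29 and 4.92 at 24 h, and 0.396 and 0.365 at 48 h, 2.38% of DMSO.

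KIF23 (MKLP1), the kinesin of centralspindlin, was at 18.6 and 25.9 FPKM under DMSO, 2.54 and 3.11 at 24 h, and 13.8 and 17.5 at 48 h in COLO858 and at 23.7 and 28.0 FPKM under DMSO, 4.73 and 4.43 at 24 h, and 2.23 and 2.16 at 48 h in MMACSF. KIF11, the plus-end motor that separates spindle poles, kept 12.6% and 64.0% of DMSO at the 2 times in COLO858, and 19.7% and 9.20% in MMACSF. The chromokinesins KIF4A and KIF22 had different shares at 24 h, with KIF4A at 13.3% in COLO858 and 25.6% in MMACSF, and KIF22 at 12.2% and 26.9%. At 48 h KIF22 kept 20.4% in MMACSF, the most of the kinesins. KIF14, KIF15, KIF18A and KIF20B stood at 45.9%, 62.6%, 48.9% and 63.5% at 48 h in COLO858 and at 3.88%, 3.83%, 6.12% and 12.2% in MMACSF.

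Genes of spindle assembly and cytokinesis fell in 6 of 7 cases in each line at 24 h. At 48 h 7 of 7 were lower in MMACSF and 0 of 7 in COLO858, with 3 there at an unadjusted limma p under 0.05. TPX2, which activates AURKA on spindle microtubules, was at 82.4 and 96.7 FPKM under DMSO, 10.8 and 11.8 at 24 h, and 53.0 and 62.5 at 48 h in COLO858. In MMACSF TPX2 was at 55.6 and 66.0 FPKM under DMSO, 11.8 and 12.2 at 24 h, and 2.61 and 3.59 at 48 h. HMMR, a microtubule-binding partner of TPX2, was at 15.4 and 25.8 FPKM under DMSO, 2.33 and 3.16 at 24 h, and 6.64 and 10.1 at 48 h in COLO858 and at 14.3 and 21.4 FPKM under DMSO, 2.95 and 3.30 at 24 h, and 0.234 and 0.165 at 48 h in MMACSF. HMMR ended lower than TPX2 relative to DMSO in both lines, at 40.7% against 64.5% in COLO858 and at 1.12% against 5.10% in MMACSF. ANLN, the anillin of the cleavage furrow, stood at 78.7% in COLO858 at 48 h and at 3.35% in MMACSF, and ECT2, the exchange factor that activates RhoA there, at 58.0% and 20.2%. The midzone bundler PRC1, the abscission protein CEP55 and the spindle protein NUSAP1 stood at 67.7%, 61.4% and 70.5% in COLO858 and at 5.15%, 3.58% and 2.81% in MMACSF.

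Whether the lines differed in their response was tested as the COLO858 change minus the MMACSF change in 1 model of the 12 libraries, in which only changes within a line are compared. At 24 h 0 genes passed the threshold in either direction, where 1.78% of all genes were higher in COLO858 and 1.93% lower, and 12 of the 55 had an unadjusted limma p under 0.05. The median difference was -0.37, with 44 of 55 differences below 0 and 11 above. The nearest to the threshold were KIF4A (-1.13 ± 0.21, adjusted p = 0.0137) and KIF22 (-1.14 ± 0.22, adjusted p = 0.0162), which fell further in COLO858. With the median-ratio rescaling 1 gene passed in that direction, and with the replicate number added to the model 12 genes passed. The genes were thus not shown to respond alike at 24 h.

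At 48 h 41 of 55 genes had a more positive change in COLO858 (4.19% of all genes tested), with a median difference of 2.51, and 54 of 55 differences were above 0. MYBL2 (5.07 ± 0.25, adjusted p = 1.24e-05), TOP2A (4.67 ± 0.35, adjusted p = 9.43e-05) and UBE2C (4.55 ± 0.23, adjusted p = 1.5e-05, limma) differed most on log2(FPKM + 1). By the ratio of their shares of DMSO at 48 h the lines stood further apart for MKI67 (65.6% in COLO858 against 0.609% in MMACSF) and NDC80 (83.0% against 1.02%) than for MYBL2 (115% against 1.53%). That order rests on values near the floor in MMACSF at 48 h, 0.0430 and 0.0852 FPKM for MKI67 and 0.0911 and 0.0606 for NDC80. FOXM1 differed by 2.27 ± 0.15 and MKI67 by 2.87 ± 0.21 on the log2 scale. Of the kinases and cyclins, PLK1 differed by 2.79 ± 0.40, AURKB by 3.13 ± 0.27 and CCNB1 by 1.99 ± 0.34. BUB1 (2.74 ± 0.30), NDC80 (2.73 ± 0.31), CENPA (2.54 ± 0.20) and KIF20A (3.83 ± 0.18) passed as well. INCENP (-0.20 ± 0.20, adjusted p = 0.618), BUB3 (0.02 ± 0.18, adjusted p = 0.969) and CDC25B (0.50 ± 0.30, adjusted p = 0.35, limma) had the smallest differences, and the sign for BUB3 changed without any 1 of 4 libraries.

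For the change from 24 to 48 h 44 of 55 genes were more positive in COLO858 (2.46% of all genes), with a median difference of 2.77 and 55 of 55 above 0. Without any 1 library the counts were 27 to 35 at 48 h and 29 to 35 for this change, where 1 group then rests on a single library taken to vary like the others. The 48 h and the 24 to 48 h differences share the 48 h libraries. Across the 55 genes the levels under DMSO, log2(FPKM + 1), correlated between the lines at r = 0.937 (Spearman 0.925), the changes at 24 h at 0.764 (0.698) and the changes at 48 h at 0.015 (0.0631), as a description over genes that share libraries and are not independent.

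**Figure D5:**
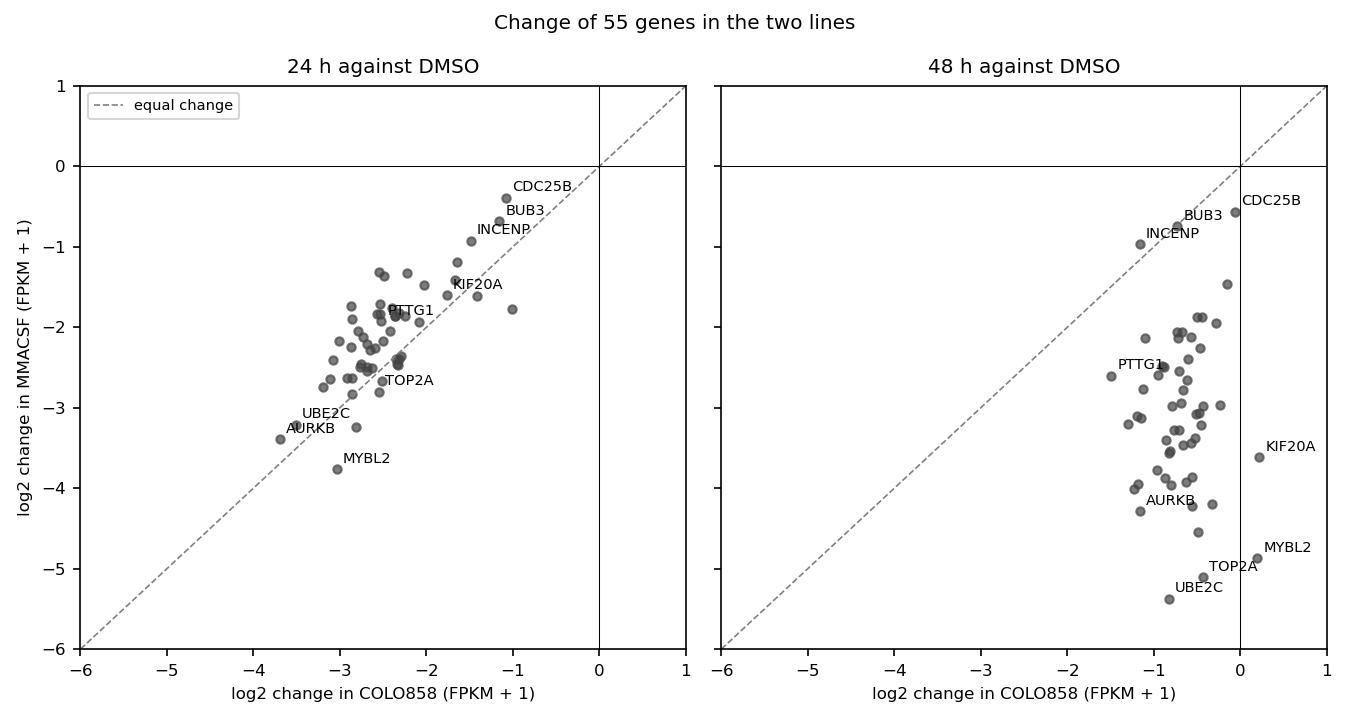
Log2 change of each of the 55 genes in COLO858 (horizontal axis) and MMACSF (vertical axis), at 24 h on the left and 48 h on the right, with a dashed line of equal change. At 24 h 44 of the 55 points lie above the line, where the fall was larger in COLO858 (median difference -0.37). At 48 h the changes in COLO858 lie between -1.49 and 0.22 while those in MMACSF reach -5.37, with INCENP and BUB3 nearest to the line.

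Promoter motifs were set beside these changes as a description. The 36 tested genes with a CHR core in their window had median log2 changes in COLO858 of -2.51 (24 h) and -0.68 (48 h), against -2.69 and -0.62 for the 11 without. In MMACSF the medians were -2.14 and -3.09 with a core and -2.05 and -2.65 without. The ranges overlapped throughout: at 48 h in MMACSF the genes with a core ran from -5.10 (TOP2A) to -0.96 (INCENP) and those without from -4.87 (MYBL2) to -0.56 (CDC25B). The genes that changed least there included INCENP, with 1 core and 3 CCAAT boxes, and CDC25B, with 0 of either. Those that changed most included TOP2A, with 2 cores and 4 CCAAT boxes, and MYBL2, with 0 of either. A part of the motifs in these changes was not tested.

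Other genes of the same structures, in lists set apart from the 56, were counted in the same fits. Of all genes tested 5.71% were lower in COLO858 and 3.6% in MMACSF at 24 h, and 4.73% and 5.41% at 48 h. The shares higher were 4.11% and 2.22% at 24 h and 4.74% and 3.42% at 48 h. A single gene called in a list of 29 is near these shares and is not read as a trait of the list. Of 29 other kinetochore and centromere genes 14 fell in COLO858 and 9 in MMACSF at 24 h, with medians of -1.64 and -0.97 on the log2 scale. The largest falls were ZWINT, an outer kinetochore protein (-3.33 in COLO858 and -2.93 in MMACSF), HJURP, the chaperone that loads CENPA (-3.24 and -2.73), and MLF1IP, now called CENPU (-2.59 and -2.24). At 48 h CENPT, a link from the centromere to NDC80, was higher in COLO858 (1.18) and 0 were lower, and 14 were lower in MMACSF. Of 15 condensin, cohesin and separase genes 9 fell in COLO858 and 7 in MMACSF at 24 h, led by CDCA5 (sororin, -3.59 and -2.79), and at 48 h 0 were lower in COLO858 and 9 in MMACSF. The median of these 15 genes at 48 h was -0.38 in COLO858 and -1.11 in MMACSF.

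Of 29 other spindle and cytokinesis genes 17 fell and 1 rose in COLO858 and 16 fell in MMACSF at 24 h. At 48 h CDC25A, a phosphatase of CDK2 and CDK1, was lower in COLO858 (-1.11), CLASP1, which stabilises microtubule plus ends, was higher there (1.13), and 17 genes were lower in MMACSF, led by SPAG5 (-3.47), FAM83D (-3.46) and GTSE1 (-3.43). NUMA1, the spindle pole organiser, was higher in MMACSF at 48 h (0.95). The 16 core subunits and other regulators of the APC/C, whose partners CDC20 and UBE2C are among the 56, had log2 medians between -0.29 and -0.11 against DMSO. In COLO858 0 of 16 passed at 24 h or 48 h, with 4 at an unadjusted limma p under 0.05 each time. In MMACSF FBXO5, the APC/C inhibitor EMI1 (-1.42), and CDC16 (-0.76) were lower at 48 h. Single genes fell well below these medians without a call. UBE2S stood at 23.9% and 36.4% of DMSO in COLO858 at 24 and 48 h, and at 20.7% and 16.5% in MMACSF. FBXO5 stood at 22.8% at 24 h in COLO858. Of 14 genes of the MuvB core, DREAM and the RB family, LIN9 (-1.57) and TFDP1 (-1.09) fell at 24 h in COLO858. In MMACSF TFDP1 (-0.81) fell at 24 h and LIN9 (-1.14) was lower at 48 h. The list medians against DMSO lay between -0.47 and -0.02. MYBL1, not called, stood at 15.2% and 104% of DMSO at 24 and 48 h in COLO858, and at 18.8% and 11.9% in MMACSF.

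Some of the values could hold reads of other genes. In GENCODE (release 44, lifted to GRCh37) 81.4% of the exonic bases of NUSAP1 and 57.6% of those of PRC1 also belong to another gene record on the same strand. On the opposite strand PRC1 shares 34.3% with PRC1-AS1, FOXM1 15.9% with ITFG2 and PLK1 11.6% with an unnamed record, and the strand setting of the counting is not given in the sources used here. KIF4A has a near-identical retrocopy, KIF4B, and CKS1B has pseudogene copies, so their levels are uncertain to that extent.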

How the data were processed

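RNA was measured by single-end sequencing of stranded mRNA libraries with spike-in controls. The authors aligned reads to hg19 with TopHat and deposited, for each line, a table of FPKM per gene made with Cuffdiff, in which each of the 12 columns was used. The tool versions, gene annotation, strand setting and whether the lines were scaled together are not given in the sources used here. Counts are not given either, so the depth of each library is unknown. Levels were tested only within a line. Where levels of both lines stand side by side, as in their correlation under DMSO, this is a description.

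Values were taken as log2(FPKM + 1) and fitted with limma (version 3.58.1, R 4.3.3, with trend) on genes whose mean reached 1 FPKM in a group, in 1 model per line (3 groups, 3 residual degrees of freedom) and in 1 model of 6 groups for the line differences. Two-sided p-values were adjusted over the whole table of tested genes (Benjamini-Hochberg), and calls were made under 0.01. The procedure was tested on simulated data in which each library varied independently. Shared variation of libraries with the same replicate number was therefore not covered. Genes shown with each library were a list of leading kinases, cyclins, checkpoint, kinetochore, kinesin and spindle genes with the extremes of each class. The genes and lists were chosen with earlier results of these data known. Promoter windows came from RefSeq (GRCh38.p14) and gene positions from GENCODE 44 lifted to GRCh37. Alternatives covered the constant, the minimum, rescaling, trend, small RNA genes, the libraries fitted, a replicate block and leaving out each library.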

Additional observations from a re-analysis of the deposited data

Results flagged for a closer look

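The response to vemurafenib at 48 h differed between COLO858 and MMACSF by the interaction test (limma, all 12 libraries) for 41 of the 55 genes, and that from 24 to 48 h for 44, each time more positive in COLO858. Among the genes followed through the classes, the difference at 48 h (log2 change in COLO858 minus that in MMACSF) was 2.27 for FOXM1, 5.07 for MYBL2, 2.87 for MKI67 and 4.67 for TOP2A. It was 1.99 for CCNB1, 2.79 for PLK1, 3.13 for AURKB and 4.55 for UBE2C. It was 2.74 for BUB1, 2.73 for NDC80, 2.54 for CENPA and 3.83 for KIF20A. INCENP and BUB3, chosen with their values known, did not pass this test. Groups of 2 libraries were too small to be searched for single libraries that stand apart.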

How the results depend on the processing

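No call changed its direction under the settings tried. With a constant of 0.1 in place of 1 FPKM the median change from 24 to 48 h in MMACSF was -1.61, since many of these genes end below 1 FPKM there. At 24 h, leaving out 1 library gave 6 to 13 genes lower in COLO858 and 0 to 7 in MMACSF, and at 48 h 0 to 0 and 24 to 28. For 48 against 24 h it gave 0 to 0 in either line, and for the line differences 27 to 35 at 48 h and 29 to 35 from 24 to 48 h. Fitting only the libraries compared gave 0 genes at 48 h and 1 from 24 to 48 h in COLO858, and 29 at 24 h and 0 from 24 to 48 h in MMACSF, with fewer residual degrees of freedom. Without a minimum the counts were 3 at 48 h and 12 from 24 to 48 h in COLO858 and 0 from 24 to 48 h in MMACSF. With a minimum of 10 FPKM 25 genes were lower at 24 h in MMACSF and 1 from 24 to 48 h, where fewer genes are tested. From 24 to 48 h median-ratio rescaling gave 35 in COLO858 and 1 in MMACSF, leaving out small RNA genes 39 in COLO858, and limma without trend 1 in MMACSF. The causes of these shifts in the counts were not tested.

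The replicate numbers are shared by 2 pairs of a line and by no stated batch. With the replicate block 42 genes were lower at 48 h and 54 higher from 24 to 48 h in COLO858, 3 were lower from 24 to 48 h in MMACSF, and the line difference at 24 h had 1 gene higher and 11 lower. Deviations of libraries with the same number correlated over the 55 genes at 0.527 to 0.903 (COLO858) and 0.239 to 0.504 (MMACSF), so these libraries varied together for the genes described. Over all genes tested r was 0.196 to 0.211 in COLO858, rising to 0.753 to 0.779 once small RNA genes were left out. The same values for MMACSF were 0.0628 to 0.113 before and 0.59 to 0.673 after.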
